A study of Mus musculus with 76 samples.

Results

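The right ventricle (RV) of old male mice was compared between a Western diet (WD) and a normal chow diet (ND) at 750 d of age, the later of the ages at which males were collected. The comparison takes 10 of the 76 libraries of the series, chosen by sex, sham treatment, diet and age: M26 to M30 from ND-fed mice and M31 to M35 from WD-fed mice, 5 in each group. Every one of these mice was a C57Bl/6J male, the wild-type inbred strain, that received a dose of 0 cGy in a study that also irradiated other mice. Diet, sex, dose and RNA integrity come from the sample labels, and the age comes from the sample list of the study. WD-fed mice had eaten a high-fat diet for a limited period in middle age and chow before and after it, so the comparison concerns mice that had been back on chow for most of their later life. Such wild-type mice are more resistant to atherosclerosis than knockout models, chow differs from WD in many ingredients besides fat, and the dissected tissue was not restricted to ventricular muscle, as the markers below show.

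The RV pumps blood at low pressure through the lungs, and its muscle cells, like those of the left ventricle, take most of their energy from fatty acids. Gene expression in the heart also follows a daily cycle: CLOCK and BMAL1 switch on the Per, Cry and Nr1d genes and the output genes Dbp, Tef and Hlf from sites called E-boxes, and the products of the Per, Cry and Nr1d genes in turn hold CLOCK and BMAL1 back. Glucocorticoids, the adrenal steroid hormones, act through a receptor that binds DNA, induce genes such as Tsc22d3, Fkbp5 and Zbtb16 in most tissues, and also induce Per1.

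Each value is the number of reads counted over the 3′ end of a gene, given below as CPM, the count scaled to the size and composition of its library, in the order M26 to M30 for ND and M31 to M35 for WD. The 10 libraries held 12282254 to 18618932 counts. Of 56941 genes, 10995 had more than 20 counts in every sham library of the study and were tested. All p-values of the diet comparison below are unadjusted values of edgeR's quasi-likelihood test unless they are called adjusted. They measure the spread between the 5 libraries of each diet.

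The libraries differed in RNA integrity number (RIN, a scale on which intact RNA scores high) and in how much atrial tissue they held, and the mean of each was unequal between diets. RIN was 5.1, 7.3, 3.6, 3.6 and 5.7 on ND and 6.6, 3.8, 7.2, 7.5 and 6.3 on WD. The mean was 5.06 ± 1.56 (SD, n = 5) on ND and 6.28 ± 1.47 on WD, a difference of 1.22 that did not exceed the spread (two-sided exact permutation test over 252 splits, p = 0.214, where the smallest p the design allows is 0.00794). M28, M29 and M32 had an RIN under 4. All 5 WD library names began with WG, as did that of 1 ND library, M29, while the other 4 ND names began with W. The labels do not say what the prefix stands for, and it cannot be told apart from diet except through M29.

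Myl7, the atrial myosin light chain, was at 2879, 1762, 649, 16.8 and 447 CPM on ND and 3411, 54.3, 1.12, 0.2 and 72.2 CPM on WD. Sln, which encodes sarcolipin, the atrial inhibitor of the sarcoplasmic calcium pump, was at 1644, 895, 235, 6.48 and 143 CPM on ND and 1505, 35.9, 0.16, 0.15 and 35.2 CPM on WD. M26, M27 and M31 were the richest in both, and M33 and M34 held almost none. The highest and the lowest Myl7 level both lay within WD, while the highest Sln level was that of M26, on ND. These genes fell below the count filter in some libraries and were not tested. The mean log2 CPM of the 9 atrial markers that could be tested, called the atrial level here, was 6.99, 6.80, 5.55, 4.13 and 5.35 on ND and 7.16, 4.54, 3.87, 3.72 and 4.53 on WD. The mean was 5.76 ± 1.17 (SD, n = 5) on ND and 4.77 ± 1.39 on WD, a difference of -0.999 that was smaller than the SD of either group. The 14 atrial markers of the list summed to between 184 and 16135 CPM in a library, and the 4 ventricular markers, led by Myl2 and Myl3, the ventricular myosin light chains, to between 6501 and 29066 CPM. All 10 libraries therefore carried the markers of ventricular muscle. The atrial sum was highest in M26, M27 and M31, at 16135, 8814 and 12732 CPM. The ventricular sums of the same libraries, 6501, 8367 and 7436 CPM, were the lowest of the 10. In whole tissue, fewer cells of a type and less RNA per cell cannot be told apart, and this holds for every result below.

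The first 2 principal components of the 500 genes that varied most, on a variance-stabilised scale, followed RNA integrity and atrial content. The first, with 40.7% of the variance, correlated with RIN at r = -0.90 over the 10 libraries (permutation p = 0.000720, adjusted over 6 tests 0.00432) and Spearman's rho = -0.87 (permutation p = 0.00190, adjusted 0.00736). The scores of this component were computed over all 10 libraries and kept for 2 further correlations with RIN. Without the 2 libraries of most extreme RIN r was -0.85, and among the 6 libraries named WG it was -0.92. Its genes with high loadings were transcripts of ribosomes, among them the ribosomal RNA genes Rn18s-rs5 and mt-Rnr1 and the ribosomal protein gene Rpl41, which were abundant in M28, M29 and M32. The second, with 32.1% of the variance, correlated with the atrial level at r = 0.80 (permutation p = 0.00534, adjusted 0.0160) and rho = 0.84 (permutation p = 0.00368, adjusted 0.00736), and its leading genes were Myl4, Dkk3, Nppb, Stard10 and Sbk2. Leaving the 2 libraries most extreme in atrial level out of the correlation, with the scores unchanged, gave r = 0.74. Myl4, Dkk3, Stard10 and Sbk2 are themselves markers in the atrial list, so this correlation partly sets the markers against themselves. Diet separated the libraries on neither component (exact permutation p = 0.595 and p = 0.103). Which component carried which measure rested on M32. With the components computed anew without it, the first correlated with the atrial level (size of r 0.915) and the second with RIN (0.966). RIN and the atrial level were only weakly related to each other (r = 0.05, permutation p = 0.881, and rho = -0.18, permutation p = 0.624).

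**Figure D1:**
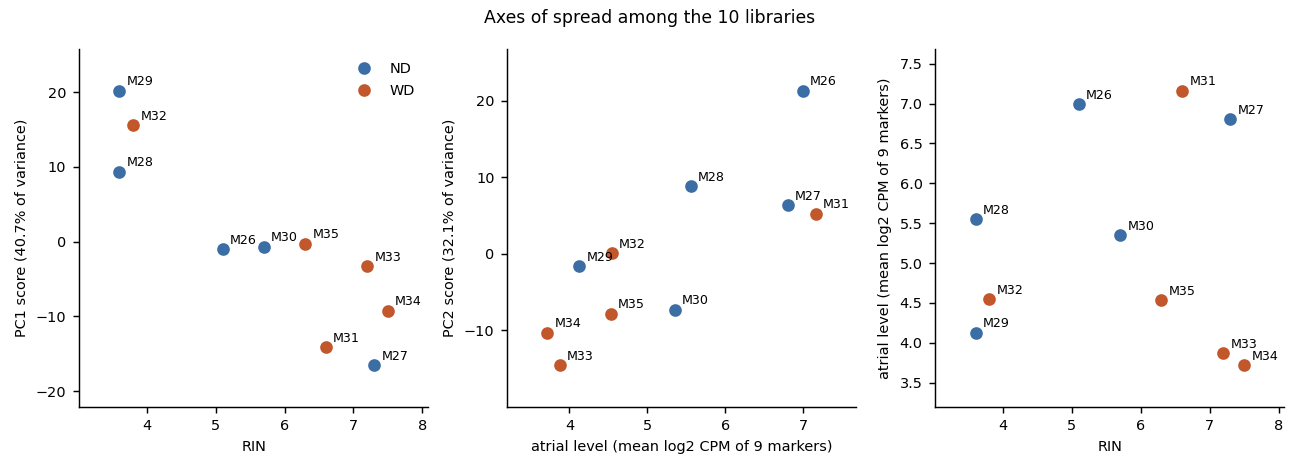
Scores of the 10 libraries (blue, ND; orange, WD) on the first principal component against RIN (left) and on the second against the atrial level, the mean log2 CPM of 9 atrial markers (middle), and the atrial level against RIN (right). The libraries of low RIN (M28, M29 and M32) have the 3 highest PC1 scores, and M26, M27 and M31 have the 3 highest atrial levels.

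No gene differed between the diets after adjustment for the 10995 genes tested (edgeR, Benjamini-Hochberg; 0 genes, 0%, smallest adjusted p = 0.999998), and DESeq2 also called 0. At an unadjusted p under 0.05 edgeR gave 346 genes, or 3.15% of those tested, 131 higher on WD (1.19%) and 215 lower (1.96%), and DESeq2 gave 426. At p under 0.01 there were 60 genes (0.546%). In 14 genes (0.127%) all 5 WD libraries lay above all 5 ND libraries, and in 35 (0.318%) all lay below. The unadjusted count moved with single libraries: it was 200 without M26, 228 without M33, 593 without M27, 744 without M32 and 864 without M30. Of the 346 genes, 76 also followed RIN and 8 the atrial level past an adjusted p of 0.05 (edgeR). Among all genes 18.6% followed RIN, and 1.12% of those that are not atrial markers followed the atrial level.

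The spread of the libraries bounded the diet difference of most genes. The median standard error of a log2 fold change was 0.207, and for 9973 genes (90.7%) the 95% interval of the diet difference lay within 1 of 0 on the log2 scale. The median size of a log2 fold change was 0.136. The ND libraries scattered more than the WD libraries: the median SD of log2 CPM within a diet was 0.355 on ND and 0.280 on WD, and 7684 genes had the larger SD on ND. The genes below are therefore given as values, none of which passed the adjusted test.

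Glucocorticoid-induced genes were mostly higher on WD. Of 14 genes in the list 13 were tested, 8 were higher at p under 0.05 and none was lower, beside 1.19% higher among all genes, and the list's median log2 fold change was 0.57 beside -0.01 for all genes. Tsc22d3 (ENSMUSG00000031431, chrX:139440091-139501408), which encodes the anti-inflammatory protein GILZ, was at 67.7, 77.4, 74.01, 60.7 and 60.2 CPM on ND and 119.8, 92.01, 94.2, 115 and 84.9 CPM on WD. Every WD library was above every ND library, and the log2 fold change was 0.57 (SE 0.15, p = 0.00244). Zbtb16 (ENSMUSG00000066687, chr9:48563141-48748664), which encodes the transcription factor PLZF, was at 1.98, 12.5, 7.25, 10.1 and 8.93 CPM on ND and 20.02, 15.02, 20.6, 33.8 and 14.8 CPM on WD. Its groups also did not overlap, and the log2 fold change was 1.36 (SE 0.38, p = 0.00308).

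The stress kinase gene Map3k6 (ENSMUSG00000028862, chr4:132968091-132980241) was at 9.90, 20.6, 10.8, 19.5 and 26.8 CPM on ND and 41.1, 19.6, 53.2, 60.05 and 21.1 CPM on WD. M31, M33 and M34 were above all of ND while M32 and M35 lay inside the ND range, and the log2 fold change was 1.16 (SE 0.35, p = 0.00584). Fkbp5, which encodes a chaperone that restrains the glucocorticoid receptor, was at 15.2, 14.9, 15.6, 24.4 and 15.4 CPM on ND and 31.7, 18.3, 21.98, 56.04 and 17.7 CPM on WD, a log2 fold change of 0.78 (SE 0.30, p = 0.023). M34 and M31 were the high WD libraries, and M29 was the one ND library above 20 CPM. Ddit4, which encodes an inhibitor of mTORC1, was at 10.2, 24.3, 9.97, 12.1 and 12.4 CPM on ND and 15.3, 7.96, 26.1, 60.2 and 29.3 CPM on WD, a log2 fold change of 1.01 (SE 0.44, p = 0.0365), with M32 below all of ND and M34 far above the rest. With RIN and the atrial level in the model Ddit4 turned to -0.14. Errfi1, a feedback inhibitor of the EGF receptor, had a log2 fold change of 0.58 (SE 0.23, p = 0.0244) and Klf9, a zinc-finger factor, of 0.40 (SE 0.18, p = 0.0454). The 5 members that missed p under 0.05 were the kinase gene Sgk1 at 0.47 (SE 0.24, p = 0.071), the metabolic regulator Klf15 at 0.30 (SE 0.17, p = 0.0982), the NF-κB inhibitor Nfkbia at 0.14, the metallothionein Mt1 at -0.08 and the cell cycle inhibitor Cdkn1a at -0.27.

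M34 was the highest library of the 10 for Zbtb16, Map3k6, Fkbp5, Ddit4, Errfi1, Klf9 and Sgk1. The mean log2 CPM of the list was 4.84 to 5.37 on ND and 5.26 to 6.33 on WD, with M34 highest and M32, the WD library of lowest RIN, lowest of WD. Without M34 the count of members higher at p under 0.05 was 4 (0.618% of all genes) and the median 0.36, and without M29 the count was 5 (0.819%). Without M34 the log2 fold changes of Ddit4, Errfi1 and Fkbp5 were 0.51, 0.36 and 0.39. With RIN in the model 4 members passed that p, beside 1.19% of all genes, and the median was 0.32. Per1, Map3k6, Ddit4 and Nfkbia were the 4 members that followed RIN (edgeR adjusted p under 0.05), with log2 slopes of 0.36, 0.41, 0.51 and 0.19 per RIN unit. Among all genes 8.43% rose with RIN at that adjusted p.

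The repressors and output genes of the clock also had high values on WD. The time of day at which each mouse was collected is not given in the sources used here. It was not tested and cannot be told apart from diet, for these or any other genes. All 13 genes of this list were tested, all 13 log2 fold changes were above 0 (48.7% were among all genes), 5 were higher at p under 0.05 (1.19% among all genes) and the median was 0.54. Per1 and Per2 encode the PERIOD repressors. Per1 (ENSMUSG00000020893, chr11:68986035-69002300), which is also counted among the glucocorticoid-induced genes, was at 36.2, 80.002, 63.5, 44.2 and 92.97 CPM on ND and 139, 77.2, 176, 169 and 103 CPM on WD. M32 lay below the ND libraries M27 and M30, the other 4 WD libraries lay above all of ND, and the log2 fold change was 1.07 (SE 0.29, p = 0.00257) with a 95% interval of 0.45 to 1.69. Per2 (ENSMUSG00000055866, chr1:91343700-91387069) was at 18.7, 30.8, 22.9, 18.02 and 67.5 CPM on ND and 119, 66.9, 108, 96.4 and 32.2 CPM on WD. M30 stood apart from the other ND libraries, which lay at or below 30.8 CPM, and M35 stood apart from the other WD libraries, and the log2 fold change was 1.42 (SE 0.40, p = 0.00372).

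Ciart (ENSMUSG00000038550, chr3:95785815-95789991), which encodes a repressor of CLOCK and BMAL1, was at 8.65, 11.8, 15.1, 9.15 and 28.3 CPM on ND and 28.2, 26.5, 44.5, 27.9 and 20.6 CPM on WD. M30 again lay among the WD libraries, the other 4 ND libraries lay below all of WD, and the log2 fold change was 1.01 (SE 0.31, p = 0.00635). Hlf, which encodes a clock output factor of the PAR bZIP family, was at 18.3, 20.2, 16.6, 8.20 and 17.7 CPM on ND and 41.5, 26.3, 34.05, 15.9 and 17.95 CPM on WD, a log2 fold change of 0.74 (SE 0.29, p = 0.0233), with M34 and M35 inside the ND range. Cry2, a cryptochrome repressor, had a log2 fold change of 0.40 (SE 0.17, p = 0.0375). The remaining 8 genes missed p under 0.05: Per3, another PERIOD gene, was at 0.66 (SE 0.37, p = 0.0947), the PAR bZIP factors Tef and Dbp at 0.58 (SE 0.29, p = 0.0655) and 0.54 (SE 0.31, p = 0.106), and the nuclear receptor Nr1d2 at 0.30 (SE 0.23, p = 0.22). The other 4 were closest to 0, Usp2, a deubiquitinase, at 0.21, the E-box-binding repressors Bhlhe41 and Bhlhe40 at 0.21 and 0.13, and the nuclear receptor Nr1d1 at 0.09. Bhlhe40 and Nr1d1 turned below 0 with RIN in the model (-0.16 and -0.24) and without M29 (-0.04 and -0.10).

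The other clock genes had values in both directions. Clock (ENSMUSG00000029238, chr5:76342860-76452846), the gene of the activator itself, was at 35.3, 29.97, 26.4, 32.4 and 29.6 CPM on ND and 20.5, 20.5, 18.1, 29.9 and 24.4 CPM on WD, lower at a log2 fold change of -0.44 (SE 0.16, p = 0.0181), with M34 inside the ND range. Cry1, a repressor that peaks late in the cycle, was at 7.33, 7.44, 6.51, 5.15 and 7.71 CPM on ND and 13.4, 7.63, 10.9, 12.7 and 6.11 CPM on WD, higher at 0.57 (SE 0.23, p = 0.0264). Rora, a nuclear receptor that activates Bmal1, was at 0.19 (SE 0.19, p = 0.319), and Nfil3, a repressor of D-box genes, was at -0.03 (SE 0.24, p = 0.898). Bmal1 fell below the count filter and was not tested: it was at 7.53, 9.47, 5.27, 6.48 and 4.64 CPM on ND and 0.821, 1.23, 1.12, 4.30 and 7.15 CPM on WD. M31, M32 and M33 were its 3 lowest libraries and M34 came next. M35, the WD library with the highest Bmal1 level, had the lowest Per2 and Ciart levels of WD, and M30, the ND library with the lowest Bmal1 level, had the highest Per2 and Ciart levels of ND. Npas2, the CLOCK paralogue, was likewise too low to test, at 3.37, 4.84, 0.989, 4.39 and 2.21 CPM on ND and 1.77, 1.31, 1.20, 3.20 and 4.69 CPM on WD, with the groups overlapping.

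The clock counts depended on the libraries taken. Without M29 3 members were higher at p under 0.05 (0.819% of all genes), without M33 3 (0.864%) and without M30 9 (4.27%), and the median lay between 0.39 and 0.74 over the 10 fits that each left out 1 library. Without M26, M27 and M31, the 3 libraries of highest atrial level, 1 member was (1.90% of all genes), with a median of 0.38. Per1, Dbp and Nr1d1 were higher in libraries of higher RIN and Usp2 was lower (edgeR adjusted p = 0.0171, 0.0171, 0.00667 and 0.0475). Among all genes 8.43% rose and 10.2% fell with RIN at an adjusted p under 0.05.

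Promoters are shown for 1 gene of each list and for the gene that both lists share. These are the 250 bases before a RefSeq start of each gene (GRCm38.p6, read on the strand of the gene), with the E-box CACGTG, the D-box TTATGNAA, to which the PAR bZIP factors and NFIL3 bind, or the half-site pair ACANNNTGT of the glucocorticoid receptor in capitals. The 27025 genes had 32851 such windows. Where a gene had several, the window with the most motifs is shown, and the gene was counted if any window held the motif.
Per1, chr11:69098699-69098948, plus strand: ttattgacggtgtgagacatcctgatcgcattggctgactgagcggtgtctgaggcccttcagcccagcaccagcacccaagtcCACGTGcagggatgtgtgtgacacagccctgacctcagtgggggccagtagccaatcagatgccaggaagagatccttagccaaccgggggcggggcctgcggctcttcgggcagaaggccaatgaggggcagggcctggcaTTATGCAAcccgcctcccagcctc
Ciart, chr3:95882229-95882478, minus strand: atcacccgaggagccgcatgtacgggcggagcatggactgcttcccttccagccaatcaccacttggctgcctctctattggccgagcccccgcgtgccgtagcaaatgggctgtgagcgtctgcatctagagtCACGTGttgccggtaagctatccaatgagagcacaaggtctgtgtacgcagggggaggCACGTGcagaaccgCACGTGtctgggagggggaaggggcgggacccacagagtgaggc
Map3k6, chr4:133240568-133240817, plus strand: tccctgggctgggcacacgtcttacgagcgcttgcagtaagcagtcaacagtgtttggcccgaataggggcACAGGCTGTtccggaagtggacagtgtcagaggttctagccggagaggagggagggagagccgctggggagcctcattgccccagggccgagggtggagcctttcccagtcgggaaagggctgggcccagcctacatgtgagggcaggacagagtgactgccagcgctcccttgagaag
Per1 held 1 E-box and 1 D-box, Ciart held 3 E-boxes and Map3k6 held 1 receptor motif. The E-box, which reads the same on both strands, was found in 4 of the 11 clock repressor and output genes with an entry (36.4%: Bhlhe41, Ciart, Per1 and Tef), in 4 of 13 glucocorticoid-induced genes (30.8%: Fkbp5, Klf15, Per1 and Sgk1) and in 6.86% of 27025 mouse genes. The motif ACANNNTGT, also palindromic, was found in 3 of the 13 (23.1%: Map3k6, Mt1 and Sgk1), in 0 of the 11 and in 6.76% of all genes. The D-box, searched on both strands, was found in Per1 and Per3 (18.2% of the 11) and in 3.63% of all genes. These shares describe the letters in the windows, and a gene with several starts had more windows to search. They were not tested.

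**Figure D2:**
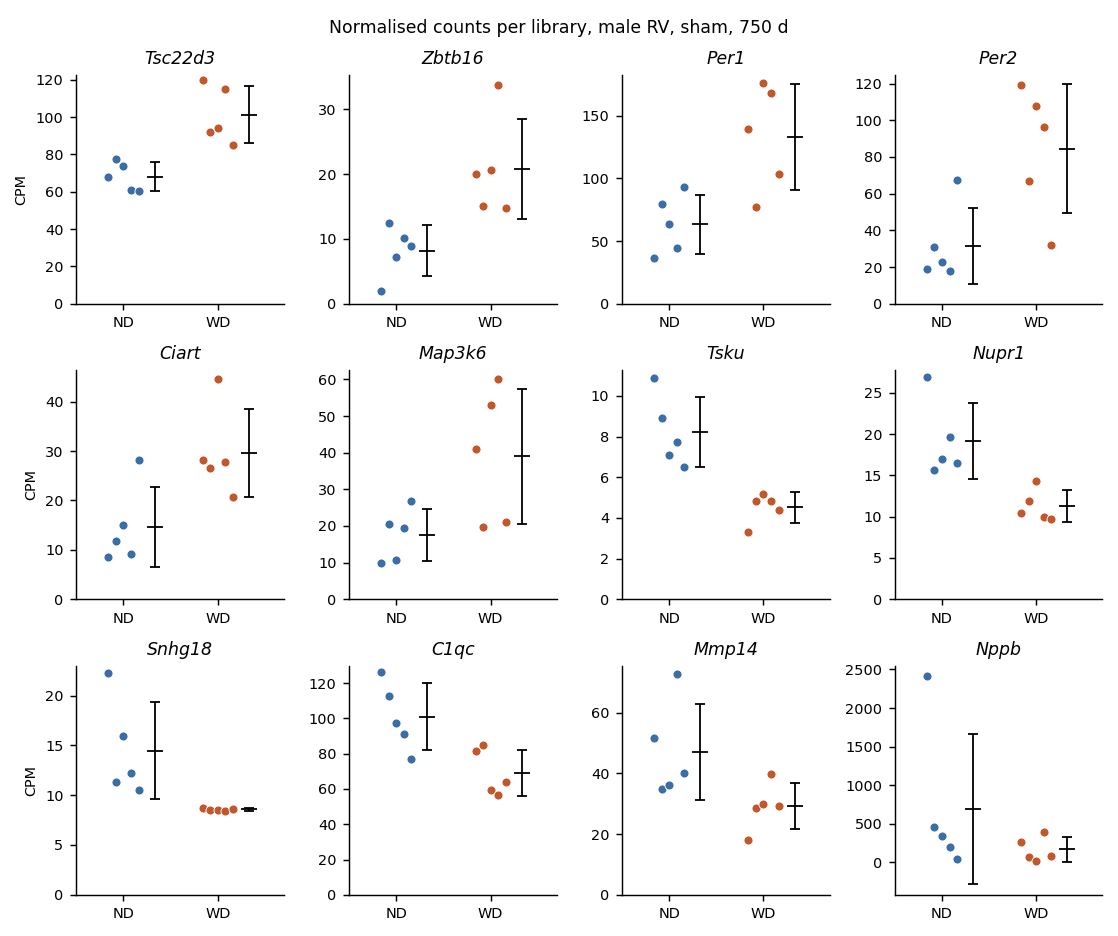
CPM (vertical axis, linear, from 0 except for Nppb) of 12 genes in each of the 5 ND (blue) and 5 WD (orange) libraries, with the mean and SD of each diet as a bar beside the points. Tsc22d3 and Zbtb16 show WD libraries all above ND, Tsku, Nupr1 and Snhg18 show them all below, the other 7 overlap, and the ND bar of Nppb reaches below 0 because 1 library, M26, is at 2415 CPM.

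The 10 genes of smallest p held 6 that were lower and 4 that were higher on WD, and 6 of the 10 had groups that did not overlap. Among all genes 0.127% had WD wholly above ND and 0.318% wholly below. The 10 were chosen by p in these same libraries, which favours groups that do not overlap. Tsku (ENSMUSG00000049580, chr7:97998341-98010711), which encodes tsukushi, a secreted leucine-rich protein that binds growth factors, had the smallest p, and was at 10.9, 8.91, 7.09, 7.72 and 6.50 CPM on ND and 3.28, 4.84, 5.20, 4.85 and 4.40 CPM on WD. Its mean was 8.22 ± 1.74 CPM on ND and 4.51 ± 0.744 CPM on WD (SD, n = 5). The log2 fold change was -0.87 (SE 0.20, p = 0.00075), with a 95% interval of -1.30 to -0.44. Nupr1 (ENSMUSG00000030717, chr7:126222414-126230033), which encodes a small stress-induced chromatin protein, was at 26.9, 15.6, 16.98, 19.6 and 16.5 CPM on ND and 10.5, 11.9, 14.3, 10.01 and 9.68 CPM on WD, a log2 fold change of -0.76 (SE 0.19, p = 0.00124). For both genes every WD library was below every ND library.

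Ssc5d (ENSMUSG00000035279, chr7:4928784-4947825), a scavenger receptor cysteine-rich protein, was at 16.7, 16.8, 17.5, 18.7 and 14.1 CPM on ND and 10.5, 10.7, 12.5, 12.2 and 9.61 CPM on WD, a log2 fold change of -0.59 (SE 0.15, p = 0.00132). Snhg18 (ENSMUSG00000096956, chr15:32196469-32245549), a long non-coding RNA that hosts a small nucleolar RNA, was at 22.3, 11.4, 15.9, 12.2 and 10.6 CPM on ND and 8.71, 8.54, 8.55, 8.41 and 8.64 CPM on WD, a log2 fold change of -0.76 (SE 0.21, p = 0.00266). Capn5 (ENSMUSG00000035547, chr7:97770766-97827906), a calcium-dependent protease, was at 6.47, 8.56, 7.91, 7.44 and 8.28 CPM on ND and 6.12, 4.92, 5.43, 3.90 and 4.02 CPM on WD, a log2 fold change of -0.66 (SE 0.18, p = 0.00295). In all 3 the groups again did not overlap, and the 5 WD libraries of Snhg18 lay between 8.41 and 8.71 CPM. Tmsb10b (ENSMUSG00000091955, chr7:24561638-24562122), a thymosin beta gene whose reads may be shared with a near-identical copy, was at 9.04, 6.11, 10.5, 12.9 and 10.7 CPM on ND and 6.76, 6.24, 5.83, 5.40 and 5.36 CPM on WD, with M26 to M30 overlapping WD only through M27, and a log2 fold change of -0.73 (SE 0.20, p = 0.00298).

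Tsc22d3 and Per1 were 2 of the 4 higher genes among these 10. The other two were Zfp1003 (ENSMUSG00000074521, chr2:177538889-177551310), a zinc-finger gene of a family of close copies on chromosome 2, at 31.8, 34.9, 36.3, 55.02 and 77.05 CPM on ND and 73.6, 94.6, 114, 118 and 63.8 CPM on WD and a log2 fold change of 0.98 (SE 0.26, p = 0.00258), and Alox12 (ENSMUSG00000000320, chr11:70132283-70146221), which encodes the arachidonate 12-lipoxygenase. Alox12 was at 7.46, 11.1, 10.6, 9.82 and 11.7 CPM on ND and 34.6, 18.1, 17.98, 25.8 and 8.94 CPM on WD, a log2 fold change of 1.06 (SE 0.29, p = 0.00282), with 4 WD libraries above all of ND and M35 inside the ND range. Estimating the spread over all 39 sham libraries, in place of the 10, brought 6 genes past an adjusted p of 0.05 (edgeR): Tsku (0.0135), Zfp1003 (0.0350), and at 0.0436 Alox12, Agap2, Nme1 and Kdelr3. When libraries of nearly identical counts elsewhere in the study were counted once, 1 gene, Tsku, passed (adjusted p = 0.0236). Both fits give each gene a single spread for all groups, and the unadjusted count of 346 became 1309 and 1011. M6 and M11, the younger males farthest apart, differed by a mean chi-square per gene of 83.7. The median between pairs of the 10 was 107. A spread shared with such groups can be too small for the 10 libraries. This was not tested, so these adjusted p-values do not establish a diet difference.

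Among genes at p under 0.05, the largest log2 fold changes upward were those of Per2, Fam107a, Zbtb16, Agap2 and Sik1. Fam107a, an actin-associated gene induced by stress and glucocorticoids, was at 3.56, 5.68, 2.55, 8.10 and 4.93 CPM on ND and 11.4, 9.27, 10.6, 27.1 and 5.14 CPM on WD, a log2 fold change of 1.37 (SE 0.41, p = 0.0049). Agap2, a GTPase-activating protein of the ARF family, was at 8.12, 13.97, 8.41, 8.20 and 14.5 CPM on ND and 22.04, 11.1, 31.6, 47.6 and 13.5 CPM on WD, a log2 fold change of 1.24 (SE 0.36, p = 0.00432), and it followed RIN (slope 0.48, edgeR adjusted p = 0.0041). Sik1, a salt-inducible kinase, was at 22.4, 39.2, 41.3, 18.1 and 23.6 CPM on ND and 42.9, 27.4, 34.7, 144 and 75.4 CPM on WD, a log2 fold change of 1.17 (SE 0.41, p = 0.0142). M34 was the highest library in all 3 genes, and without it the log2 fold changes of Fam107a and Sik1 were 0.88 and 0.64. The WD libraries inside the ND range were M35 for Fam107a, M32 and M35 for Agap2 and M32 and M33 for Sik1.

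The largest downward were Nppb, Myl1, Fzd2, Pdgfrl and Lypd8l. Nppb (ENSMUSG00000029019, chr4:148069859-148071662), which encodes brain natriuretic peptide, the hormone of stretched heart muscle, was at 2415, 460.2, 336, 197 and 48.7 CPM on ND and 269.8, 72.1, 18.9, 395 and 81.9 CPM on WD, a log2 fold change of -2.04 (SE 0.93, p = 0.0455) with a 95% interval of -4.04 to -0.05. M26 alone accounted for most of the ND mean, and of the remaining ND libraries M27 was the one above all of WD. Without M26 the log2 fold change of Nppb was -0.64. Myl1, an alkali myosin light chain of fast skeletal muscle that the atrium also expresses, was at 449, 232, 167, 87.4 and 58.3 CPM on ND and 205, 53.2, 36.1, 37.98 and 49.1 CPM on WD, a log2 fold change of -1.38 (SE 0.59, p = 0.0343), which was -0.83 without M26 and -2.17 without M31. Fzd2, a Wnt receptor, was at 23.6, 12.0003, 7.91, 3.91 and 5.43 CPM on ND and 6.31, 5.25, 3.92, 3.25 and 4.25 CPM on WD and Pdgfrl, a PDGF receptor-like protein, at 7.79, 7.51, 3.71, 2.77 and 3.50 CPM on ND and 3.41, 2.05, 2.16, 1.95 and 1.86 CPM on WD, with log2 fold changes of -1.21 (SE 0.41, p = 0.0114) and -1.15 (SE 0.32, p = 0.00316). Fzd2 was at -0.68 without M26 and turned to 0.23 with the name prefix in the model. Myl1, Fzd2 and Pdgfrl rose with the atrial level (edgeR adjusted p = 0.00304, 0.0164 and 0.0265), and M26 and M27 were their highest ND libraries. Lypd8l, an Ly6/Plaur-domain gene, was at 5.28, 4.98, 10.9, 10.6 and 4.07 CPM on ND and 2.02, 2.63, 5.59, 1.80 and 5.21 CPM on WD, a log2 fold change of -1.06 (SE 0.38, p = 0.016) with overlap in both directions.

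Of the 14 genes in which all WD libraries lay above all ND libraries, Timp4 had the largest difference after Zbtb16. Timp4, the tissue inhibitor of metalloproteinases that heart muscle expresses most, was at 12.1, 16.3, 25.3, 43.002 and 42.1 CPM on ND and 43.3, 75.9, 62.8, 74.3 and 45.1 CPM on WD, a log2 fold change of 1.12 (SE 0.33, p = 0.00456). Epas1, which encodes the hypoxia-inducible factor HIF-2α, was at 321, 345, 343, 243 and 299.7 CPM on ND and 352, 374, 437, 577 and 398 CPM on WD, a log2 fold change of 0.46 (SE 0.19, p = 0.0314), and Cirbp, a cold-inducible RNA-binding protein, was at 59.6, 70.04, 56.7, 49.5 and 64.6 CPM on ND and 78.6, 81.4, 83.5, 71.9 and 73.7 CPM on WD, a log2 fold change of 0.37 (SE 0.14, p = 0.0194). Of the 35 in the other direction, Nnmt, the nicotinamide N-methyltransferase, was at 6.87, 6.18, 9.31, 6.01 and 9.50 CPM on ND and 4.48, 4.27, 4.08, 5.70 and 4.69 CPM on WD, a log2 fold change of -0.70 (SE 0.20, p = 0.00332). Sox9, a transcription factor of cartilage and activated fibroblasts, was at 20.003, 8.07, 7.83, 8.30 and 6.998 CPM on ND and 6.12, 6.89, 6.07, 6.56 and 5.21 CPM on WD, a log2 fold change of -0.73 (SE 0.28, p = 0.0203), with M26 far above the others and a log2 fold change of -0.34 without it.

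Matrix and fibroblast genes were lower on WD in their medians, with few members past p under 0.05. Of 31 collagen and matrix genes 6 were lower at that p and none was higher, beside 1.96% lower among all genes, and the median log2 fold change was -0.35. Mmp14, the membrane metalloproteinase, was at 51.6, 34.7, 36.3, 72.8 and 40.3 CPM on ND and 18.2, 28.6, 29.97, 39.8 and 29.4 CPM on WD, a log2 fold change of -0.69 (SE 0.24, p = 0.013). Col6a3, a chain of collagen VI, was at 50.2, 42.4, 30.3, 52.7 and 45.7 CPM on ND and 32.6, 19.7, 32.9, 29.2 and 36.7 CPM on WD, a log2 fold change of -0.55 (SE 0.20, p = 0.0141). In Mmp14 only M34 on WD was above the ND minimum, and in Col6a3 the overlap came from M28, the lowest ND library. The other 4 were the lysyl oxidase Loxl1 at -0.62 (SE 0.23, p = 0.0187), the metalloproteinase inhibitor Timp2 at -0.48 (SE 0.20, p = 0.0285), the microfibril protein fibrillin-1, Fbn1, at -0.56 (SE 0.24, p = 0.0387) and Col15a1 at -0.56 (SE 0.24, p = 0.038). The major fibrillar collagens did not pass: Col1a1 was at 145, 158, 89.9, 87.5 and 69.5 CPM on ND and 52.03, 30.7, 73.3, 165 and 85.6 CPM on WD, a log2 fold change of -0.44 (SE 0.38, p = 0.268), and Col3a1 had -0.71 (SE 0.34, p = 0.056).

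The fibroblast list shares members with the matrix list, Col3a1 among them, so the 2 lists do not give separate results. Among all genes 48.7% had a log2 fold change above 0 and 1.96% were lower at p under 0.05. All 14 fibroblast markers had a log2 fold change below 0, with a median of -0.41, and 2 were lower at that p. These were Cd248, the stromal surface protein endosialin, at 18.9, 20.7, 32.1, 38.1 and 20.4 CPM on ND and 11.1, 20.4, 19.6, 16.2 and 16.2 CPM on WD and -0.64 (SE 0.23, p = 0.0158) on the log2 scale, and Islr, the mesenchymal protein meflin, at 52.7, 57.3, 54.4, 24.1 and 25.4 CPM on ND and 22.4, 21.1, 22.3, 29.9 and 35.5 CPM on WD and -0.70 (SE 0.27, p = 0.0201). Islr was high in M26, M27 and M28 and overlapped WD in M29 and M30. Of the 31 matrix genes 1, and of the 14 fibroblast markers 1, rose with the atrial level past an adjusted p of 0.05 (edgeR), beside 1.01% of all genes, and none fell. Without the 3 libraries of highest atrial level 1 matrix gene was lower at p under 0.05 (1.69% of all genes) and the median log2 fold change of the matrix list was 0.07, on the other side of 0. Without them the fibroblast median was -0.09, with 1 member lower. With the name prefix in the model the medians were also above 0 (0.26 and 0.16). With RIN in the model 20 matrix genes and 7 fibroblast genes were lower, beside 2.60% of all genes, with medians of -0.60 and -0.58. Leaving out single libraries gave 3 matrix genes without M26 or M27 (1.10% and 2.90% of all genes) and 11 without M34 (1.60%), and for fibroblast markers 1 without M27, 4 without M30 (3.59%), 5 without M29 (1.95%) and 8 without M34.

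Macrophage markers showed a like median. Of 15 tested, 4 were lower at p under 0.05, beside 1.96% of all genes, none was higher and the median log2 fold change was -0.42. The 3 chains of complement C1q, which tissue macrophages secrete, were among these 4. C1qc was at 126, 113, 97.7, 91.4 and 76.9 CPM on ND and 81.3, 85.03, 59.6, 56.3 and 63.8 CPM on WD, a log2 fold change of -0.55 (SE 0.18, p = 0.00968), with M31 and M32 inside the ND range. C1qa was at 176, 137, 127, 183 and 122 CPM on ND and 113, 135, 98.3, 77.9 and 93.9 CPM on WD and C1qb at 124, 105, 91.2, 163 and 76.7 CPM on ND and 92.3, 105, 61.5, 58.2 and 63.2 CPM on WD, with log2 fold changes of -0.52 (SE 0.19, p = 0.016) and -0.56 (SE 0.23, p = 0.0324). The fourth was Trem2, a lipid-sensing receptor of macrophages, at 12.7, 8.91, 7.25, 14.1 and 10.1 CPM on ND and 7.39, 9.36, 7.51, 7.81 and 6.85 CPM on WD and -0.45 (SE 0.20, p = 0.0407) on the log2 scale. The lowest log2 fold change of the list was that of Lgals3, galectin-3, at -1.14 (SE 0.60, p = 0.0803), a gene whose level followed atrial content (edgeR adjusted p = 0.00308) and was highest in M26, at 155 CPM. Leaving out single libraries moved it from -1.84 without M31 to -0.48 without M26, and it turned to 0.57 with the name prefix in the model. The 2 members above 0 were the scavenger receptor Cd163 at 0.31 and the hyaluronan receptor Lyve1 at 0.05. Without M26, M27 and M31 no macrophage marker was lower at p under 0.05 (edgeR; 1.69% of all genes) and the median was -0.17. Without M26, M33, M34 or M35 the count was 2 (1.03% to 1.60% of all genes), and without M30 it was 7 (3.59%).

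**Figure D3:**
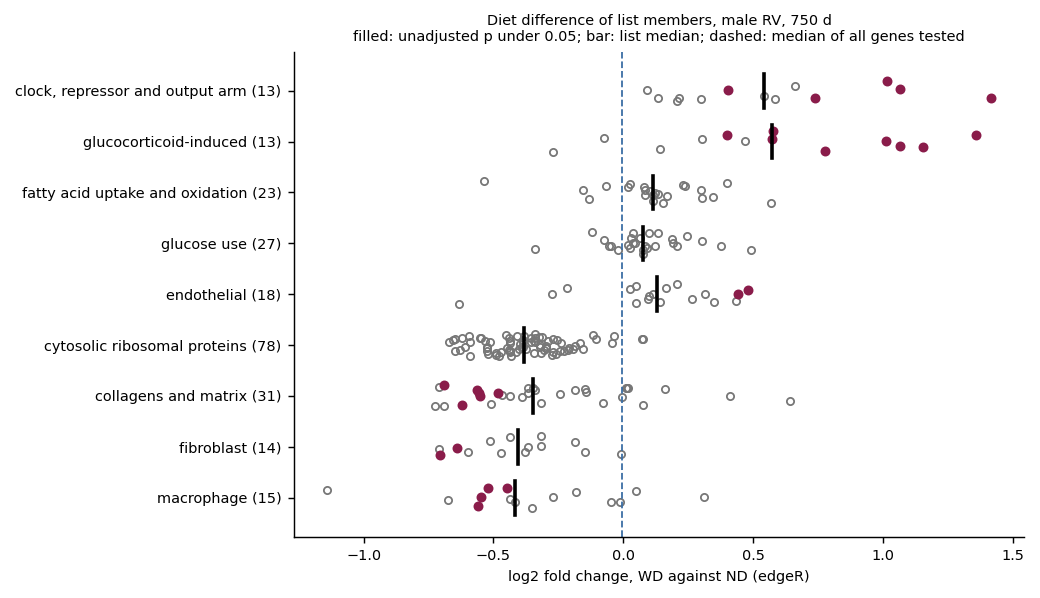
Log2 fold change of WD against ND (horizontal axis, edgeR) for each tested member of 9 gene lists (rows, number of members in parentheses); filled points passed an unadjusted p under 0.05, black bars are list medians and the dashed line is the median of all 10995 genes. Clock output and glucocorticoid-induced genes lie to the right with medians of 0.54 and 0.57. Ribosomal, matrix, fibroblast and macrophage genes lie to the left with medians of -0.38, -0.35, -0.41 and -0.42. The lists for fatty acid uptake and oxidation and for glucose use have medians of 0.11 and 0.08.

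Genes of fuel use, the processes closest to a fatty diet, showed no member past p under 0.05, beside 3.15% of all genes. The lists were fatty acid uptake and oxidation (23 genes, median log2 fold change 0.11), PPAR targets (15, 0.06), glucose use (27, 0.08), ketone and amino acid use (9, 0.14) and cholesterol synthesis and uptake (18, -0.03). In this order 19, 8, 21, 8 and 7 members had a log2 fold change above 0, beside 48.7% of all genes. Lpl, the lipoprotein lipase that frees fatty acids from circulating triglyceride, was at 2558, 3333, 4109, 5191 and 3153 CPM on ND and 2882, 5800.4, 4393, 5343 and 5804 CPM on WD. Its log2 fold change was 0.40 (SE 0.28, p = 0.169), with a 95% interval of -0.19 to 0.99. Acadvl, the very-long-chain acyl-CoA dehydrogenase, had 0.57 (SE 0.41, p = 0.189), Pdk2, a kinase that shuts pyruvate dehydrogenase, 0.38 (SE 0.23, p = 0.121), and Angptl4, an inhibitor of Lpl, -0.60 (SE 0.42, p = 0.174). In the list of lipogenesis and LXR targets (19 genes, median 0.01) 1 gene was higher and 1 lower. The higher was Mylip, which encodes the E3 ligase of the LDL receptor, at 0.78 (SE 0.33, p = 0.0337), a gene that also followed RIN (adjusted p = 0.00162 by edgeR). The lower was Scd1, the stearoyl-CoA desaturase, at 23.6, 33.3, 20.9, 15.3 and 19.6 CPM on ND and 19.2, 12.2, 13.8, 8.01 and 11.1 CPM on WD, a log2 fold change of -0.81 (SE 0.25, p = 0.00597). Its only overlap came from M31, the one WD library above the ND minimum.

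Endothelial markers had 2 of 18 members higher at p under 0.05, beside 1.19% of all genes, and none lower, with a median of 0.13: the VEGF receptor Flt1 at 0.48 (SE 0.19, p = 0.0273) and Rgcc, a cell cycle regulator induced in endothelium, at 0.44 (SE 0.19, p = 0.0384). Without M34 Flt1 was at 0.31. In the list of smooth muscle and pericyte markers (12 genes, median 0.15) Notch3, the mural cell Notch receptor, was higher at 0.54 (SE 0.24, p = 0.0467), a value that was -0.00842 with RIN and the atrial level in the model. Among 20 immediate early genes (median 0.26) Cebpb was the 1 past that p. Of 31 class I MHC and interferon genes (median 0.10) 2 were higher and 1 lower. H2-Q7, a non-classical class I gene with close copies, was at 0.66 (SE 0.29, p = 0.0386) and 0.42 without M31, and Ifi27l2a, an interferon-induced mitochondrial protein, was at -0.76 (SE 0.25, p = 0.00926) and -0.49 without M29. Of 21 heat shock and unfolded protein response genes (median -0.05) Herpud1, an ER degradation factor, was higher at 0.49 (SE 0.19, p = 0.0233) and Sdf2l1, an ER chaperone cofactor, was lower at -0.54 (SE 0.19, p = 0.014), the latter with no overlap between diets.

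The 78 tested genes of cytosolic ribosomal proteins had no member past p under 0.05, yet 76 had a log2 fold change below 0 and the median was -0.38. Among all genes 48.7% had a log2 fold change above 0. Of the 78 ribosomal protein genes 70 fell with rising RIN at an adjusted p under 0.05 (edgeR), beside 10.2% of all genes. Their reads may be shared with processed pseudogenes. The list of cardiac stress genes (12, median -0.26) had Nppb as its single member past p under 0.05. The 20 sarcomere genes (median 0.08) and the 4 ventricular markers (median 0.19) had none. Of the 9 testable atrial markers none passed, with a median of -0.39. The 5 red blood cell genes had a median of 0.61 and none passed, and the only testable mesothelial marker, Wt1, an epicardial transcription factor, was at 0.99 (SE 0.44, p = 0.0417) and 0.22 without M34, with M34 at 42.1 CPM and the other 9 libraries at or below 12.3 CPM.

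The study named 6 genes for males from a comparison that joined both ages, so these 10 libraries were among those that chose them and are not independent evidence of their direction. Per2 is described above. Rhobtb1, a BTB-domain protein that adapts cullin-3 ubiquitin ligase, was at 73.7, 92.4, 76.7, 71.03 and 102 CPM on ND and 143, 98.9, 132, 116 and 111 CPM on WD, a log2 fold change of 0.53 (SE 0.16, p = 0.00648), with 1 WD library, M32, inside the ND range. Cebpb, a transcription factor of inflammation and metabolism, was at 23.6, 24.001, 30.8, 22.2 and 17.7 CPM on ND and 24.8, 33.7, 43.9, 37.2 and 32.5 CPM on WD, a log2 fold change of 0.54 (SE 0.18, p = 0.0115). Shld1, a subunit of the shieldin complex of DNA repair, was at 27.7, 18.7, 44.6, 48.3 and 23.9 CPM on ND and 43.6, 81.1, 24.9, 30.8 and 34.4 CPM on WD, a log2 fold change of 0.40 (SE 0.33, p = 0.255). Its value was high in M28, M29 and M32, and it fell with RIN (slope -0.28, edgeR adjusted p = 0.031). The study itself took Shld1 off its final list because it was also among the genes significant for RIN.

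Col15a1, a collagen of basement membranes, was at 95.3, 86.04, 72.1, 76.5 and 68.2 CPM on ND and 44.7, 35.4, 78.2, 35.1 and 76.6 CPM on WD, a log2 fold change of -0.56 (SE 0.24, p = 0.038). M33 and M35 lay inside the ND range and the other 3 WD libraries lay below it. Cd93, a receptor of endothelial cells, was at 139, 153, 133, 116 and 146 CPM on ND and 99.6, 97.01, 116, 128 and 128 CPM on WD, a log2 fold change of -0.27 (SE 0.15, p = 0.0954). At 750 d, 4 of the 6 passed an unadjusted p under 0.05. Among all genes 3.15% did, but the shares cannot be compared, because these libraries helped to choose the 6. The log2 fold changes at 530 d, from libraries that also chose these genes, had the same signs: 0.62 for Per2, 0.46 for Rhobtb1, 0.34 for Cebpb, 0.37 for Shld1, -0.55 for Col15a1 and -0.35 for Cd93. Among those libraries, M12 to M15 on WD were nearly identical and were counted separately. The shared signs are therefore not independent evidence of direction.

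RIN was followed by far more genes than diet. In a model of RIN alone over the 10 libraries, edgeR gave 2046 genes past an adjusted p of 0.05 for RIN (18.6%), 927 rising with RIN (8.43%) and 1119 falling (10.2%). Without M29 there were 1261 and without M32 1166. Those of smallest p that rose were the kinase gene Rps6ka4 at a log2 slope of 0.43 per RIN unit, Tmem200b, a transmembrane protein, at 0.52 and Colgalt1, a collagen galactosyltransferase, at 0.36 (adjusted p = 9.44e-05, 0.000116 and 0.000191). Those that fell were Rpsa-ps10 at -0.62, Gm14303 at -0.54 and Gm10076 at -0.61 (adjusted p = 6.01e-05 for each), 3 genes without a described function of their own whose reads may come from near-identical ribosomal protein genes. Rpsa-ps10 was at 54.001, 18.4, 78.4, 126 and 43.4 CPM on ND and 23.9, 85.6, 24.7, 19.9 and 24.8 CPM on WD, high in M28, M29 and M32 on both diets.

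The atrial level, also tested alone, was followed by 123 genes that are not atrial markers (edgeR adjusted p under 0.05, 1.12%), 111 rising (1.01%) and 12 falling (0.109%). Ndnf, a secreted neurotrophic factor, was at 16.6, 14.2, 7.75, 3.24 and 7.07 CPM on ND and 13.95, 5.17, 3.44, 4.05 and 4.02 CPM on WD, a log2 slope of 0.66 per unit of atrial level. Tbc1d1, a Rab GTPase-activating protein of glucose uptake, had a slope of 0.80 and Vsig4, a complement receptor of resident macrophages, one of 0.94, and all 3 were high in M26, M27 and M31. Ogdhl, a subunit of a 2-oxoglutarate dehydrogenase, fell at -0.45, Ptprn, a protein of secretory granules, at -0.54 and Prkcq, protein kinase C theta, at -0.46. The number of genes was 56 without M26, 52 without M27, 64 without M31, 68 without M35 and 243 without M34, and Prkcq did not pass without M26, M27 or M31 (adjusted p between 0.0754 and 0.117).

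Set against the 530 d males, whose 5 ND and 5 WD libraries were fitted with these 10, no gene had a diet difference that changed with age after adjustment (edgeR, 0 genes, 0%), and 373 did at an unadjusted p under 0.05 (3.39%). This number was 1206 without M30 and 818 without M32. Of the WD libraries at 530 d, M12 to M15 were far closer to each other than other libraries were: their 6 pairs had a mean chi-square per gene of 1.72 to 2.48, while the 45 pairs at 750 d lay between 23.3 and 256 with a median of 107. Counted as 1 library, they left 234 genes. The 530 d set then held 7 libraries, with only M11 and the merged library on WD. Of the 15 macrophage markers 9 had a lower diet difference at 750 d than at 530 d at p under 0.05, beside 1.38% of all genes, and 10 when M12 to M15 were counted once, beside 1.41%. The median log2 fold change of the list was 0.38 at 530 d, with 2 members higher at p under 0.05 beside 2.79% of all genes (7.04% in either direction), and -0.42 at 750 d. Counted once, 530 d gave a median of 0.65 with 8 members higher, beside 1.55% of all genes. C1qc was at 0.39 (SE 0.27) at 530 d against -0.55 at 750 d, an interaction of -0.91 (SE 0.34, p = 0.0133). Counted once these were 0.83 (SE 0.31) at 530 d and -1.35 (SE 0.36, p = 0.00134) for the interaction. Trem2 was at 0.51 (SE 0.21) against -0.45, an interaction of -0.93 (SE 0.29, p = 0.00455), and counted once at 0.65 (SE 0.29) with an interaction of -1.07 (SE 0.36, p = 0.0072).

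**Figure D4:**
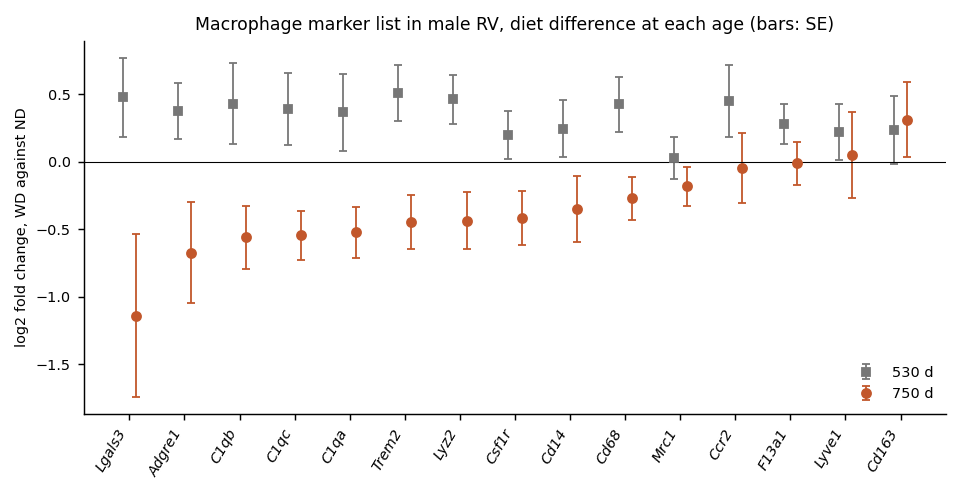
Log2 fold change of WD against ND (vertical axis, edgeR) for the 15 tested macrophage markers in male RV at 530 d (grey squares) and 750 d (orange circles), ordered by the value at 750 d; bars are standard errors, and those at 530 d treat the 4 nearly identical WD libraries as separate. All 15 values at 530 d lie above 0, and 13 of 15 at 750 d lie below it.

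Genes of smallest interaction p were Tsku, Bvht, Mcf2l, Hlx and Atp2a3, with adjusted p = 0.996 for each (edgeR). Tsku was at 0.21 (SE 0.14) at 530 d and -0.87 at 750 d, an interaction of -1.05 (SE 0.23, p = 0.000169), which was -1.11 (SE 0.28, p = 0.000878) with M12 to M15 counted once. Bvht, a long non-coding RNA of the cardiac lineage that lies near the Mir143 and Mir145 genes, was at -0.32 (SE 0.10) and 0.31, an interaction of 0.66 (SE 0.16, p = 0.000513), which was 0.76 (SE 0.21, p = 0.00156) counted once. At 750 d its WD libraries all lay above ND. For Snhg18 and Bvht, reads of an overlapping gene on the other strand cannot be told apart where the counting ignored strand, a setting not given in the sources used here. Mcf2l, a guanine nucleotide exchange factor, was at -0.38 (SE 0.11) and 0.91, Hlx, a homeobox factor, at -0.32 (SE 0.08) and 0.37, and Atp2a3, the SERCA3 calcium pump of endothelium, at -0.22 (SE 0.10) and 0.51. Counted once, the 530 d values of these 3 genes were -0.50 (SE 0.15), -0.32 (SE 0.13) and -0.11 (SE 0.14), and their interactions were 1.43 (SE 0.42, p = 0.00331), 0.72 (SE 0.25, p = 0.0101) and 0.64 (SE 0.28, p = 0.0332). Of 13 glucocorticoid-induced genes 4 had a higher diet difference at 750 d than at 530 d at p under 0.05, beside 2.01% of all genes, of 13 clock output genes 2 and of 18 endothelial markers 4. With M12 to M15 counted once these were 2, 0 and 3, beside 0.719% of all genes.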

How the data were processed

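RNA of right ventricular tissue was sequenced by the authors from poly-A selected paired-end libraries. The submitters' processing notes name FastQC 0.11.9, STAR 2.7.8a and the build mm39 (GRCm39). Because some RNA was degraded, the authors counted reads with HTSeq-count over the 3′ end of each gene only. Values used here are the raw counts per gene that the authors deposited, 1 column per library, with no column left unmapped. Counting at the 3′ end lessens the effect of degraded RNA, and levels of different genes cannot be compared from it. The annotation release and strand setting are not given in the sources used here.

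A gene was tested if its count exceeded 20 in each of the 39 sham libraries (10995 of 56941 genes). Counts were fitted with edgeR 4.0.16 (TMM, quasi-likelihood F-test, limma 3.58.1, R 4.3.3) on the 10 libraries with diet as the only term, and p-values were adjusted by Benjamini-Hochberg. RIN and the atrial level were each tested as the only term, and diet by age over 20 male libraries. Components were computed after the variance-stabilising transformation of DESeq2, on the 500 genes that varied most. CPM used TMM library sizes, and log2 CPM a prior count of 2. Diet, RIN and components were related by exact or 100000-fold permutation (scipy 1.17.1, numpy 2.4.6, Python 3.11.15), two-sided, adjusted over 6 tests. DESeq2 1.42.0, other filters, covariates and sample sets and leaving out each library were alternatives. The scripts were tested on simulated counts. Depth was 12282254 to 18618932 counts per library, intervals are 95% and no library was pooled or left out.

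Libraries were grouped by the labelled diet and by the age in the sample list of the study. Gene names and positions are from GENCODE vM39 (GRCm39; 56323 IDs matched), and promoters are RefSeq's (GRCm38.p6). The comparison and the 38 gene lists were chosen with earlier results of these data known. The rule for named genes took the 10 of smallest p, the 5 of largest log2 fold change in each direction at p under 0.05, 6 genes named by the study for males, 2 members per list, every clock and atrial member, Myl7 and Sln, 3 genes per direction for RIN and atrial level and 5 for the interaction. Members of a list beyond these 2, Timp4, Epas1, Cirbp and Nnmt were chosen after their values were seen. Some genes that the rule took are not reported here.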

Additional observations from a re-analysis of the deposited data

Results flagged for a closer look

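In 20 of 230 groups of 5 libraries examined (8.70%), 1 library stood far from the other 4 of its diet, where chance does so in about 1 group in 20. The 2 shares cannot be set against each other, because some genes had been taken for following the atrial level (Ndnf, Tbc1d1 and Vsig4, beside the atrial markers) or RIN (Gm10076, Gm14303, Rpsa-ps10 and Rps6ka4), of which M31 has the highest and M32 the lowest value on WD. M31 was that library in 7 groups and M32 in 5. On WD, M31, the library with the highest Myl7 level, was the highest in log2 CPM for Myl1 (7.68), Ndnf (3.82), Pdgfrl (1.83), Tbc1d1 (6.85) and Vsig4 (4.31), for the mean of the atrial markers (7.16) and for the mean of the macrophage markers (5.08). M32, the WD library with the lowest RIN, was the highest for Gm10076 (7.77), Gm14303 (7.72), Rpsa-ps10 (6.42) and Ifi27l2a (5.86) and the lowest for Rps6ka4 (2.69).

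Among ND libraries, M29, 1 of the 2 with the lowest RIN and the one named WG, was the highest for Fkbp5 (log2 CPM 4.62) and the lowest for Bhlhe40 (4.55) and Hlf (3.06). M26 was the highest for Sox9 (4.33) and for Timp1 (4.77), a metalloproteinase inhibitor gene. M27 was the highest for Ddit4 (4.61). M30 was the highest for Nr1d2 (7.50) and the lowest for Loxl1 (5.64).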

How the results depend on the processing

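No paired analysis was possible because the diet groups share no replicate numbers. The count of genes past the adjusted threshold was 0 under every alternative run on the 10 or 20 male libraries, 6 over 39 sham libraries and 1 over these with near-identical libraries counted once. Counting those once, leaving out the 3 most atrial libraries and taking Myl7 and Sln as covariates were chosen after seeing the data, and the cause of the shifts below was not tested. The unadjusted count of 346 was 1521 with no filter, 767 over 20 male libraries (552 counted once), 1309 over 39 (1011), 1025 with the name prefix and 203 with Myl7 and Sln as covariates, and 200 to 864 leaving out 1 library.

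Clock output members higher were 8 over 20 libraries, 9 over 39 (8 counted once), 9 with the prefix (median 1.33), 8 with no filter, 3 without RIN under 4, 1 without the 3 most atrial, 3 without the ND library named WG, and 3 to 9 leaving out 1 library. Glucocorticoid-induced members higher were 4 with RIN, 5 with the atrial level, 3 with both, 5 with Myl7 and Sln, 4 with the prefix, 5 without the ND library named WG and 4 to 9 leaving out 1. Matrix members lower were 20 with RIN, 18 with RIN and atrial level, 2 with the prefix (median 0.26), 1 without the 3 most atrial (median 0.068) and 3 to 11 leaving out 1. Fibroblast members lower were 6 over 39 (5 counted once), 4 with Myl7 and Sln, 5 with RIN and atrial level, 7 with RIN, 1 with the atrial level, 1 with the prefix (median 0.16), 4 with no filter, 1 without the 3 most atrial, 5 without the ND library named WG and 1 to 8 leaving out 1. Macrophage members lower were 2 over 20 (2 counted once), 7 over 39, 1 with Myl7 and Sln, 1 with RIN and atrial level, 0 without the 3 most atrial and 2 to 7 leaving out 1, and the median was -0.13 with the prefix.

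Genes following the atrial level were 343 by DESeq2, 284 with RIN, 256 with filterByExpr and 52 to 243 leaving out 1, and those following RIN 1166 to 2412. The diet by age count of 373 was 611 with filterByExpr, 750 over 39, 234 counted once and 251 to 1206 leaving out 1. Over all genes the size of r of PC2 with the atrial level was 0.67 and missed the threshold; leaving out 1 library gave 0.029 to 0.87 for it, 0.0073 to 0.97 for PC1 with RIN, 0.19 to 0.92 for PC1 with the atrial level, 0.16 to 0.97 for PC2 with RIN and 19.8% to 34.8% of variance on PC2.

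Of 91 genes with a diet value 75 kept their sign throughout. With RIN as covariate Bhlhe40 (-0.16), Mt1 (0.28), Nfil3 (0.13), Nfkbia (-0.070) and Nr1d1 (-0.24) turned, and with RIN and atrial level Ddit4 (-0.14), Nfkbia (-0.059), Notch3 (-0.00842) and Nr1d1 (-0.21). With the prefix Fzd2 (0.23), Islr (0.12), Lgals3 (0.57), Lpl (-0.10), Phlda3 (0.34), Shld1 (-0.17) and Usp2 (-0.45) turned. Without RIN under 4 Angptl4 (0.050), Mt1 (0.36) and Nr1d1 (-0.078) turned, without the 3 most atrial Col1a1 (0.11), Nfil3 (0.077) and Usp2 (-0.049), and without the ND library named WG Bhlhe40 (-0.038), Mt1 (0.20), Nfil3 (0.060) and Nr1d1 (-0.099). Leaving out 1 library, Bhlhe40 ranged from -0.043 to 0.27, Mt1 from -0.23 to 0.20, Nfil3 from -0.19 to 0.11, Nr1d1 from -0.099 to 0.48 and Usp2 from -0.038 to 0.43.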

Other observations

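Gene groups not described above gave few members past an unadjusted p under 0.05 (edgeR). Of 20 genes of calcium handling and conduction (median log2 fold change 0.04) Kcnq1, a potassium channel of repolarisation, was lower at 43.1, 36.001, 50.6, 60.8 and 21.7 CPM on ND and 30.6, 37.8, 26.5, 24.3 and 27.6 CPM on WD, a log2 fold change of -0.53 (SE 0.24, p = 0.0437). M30 was the lowest library on either diet, and Kcnq1 fell with RIN (slope -0.23, edgeR adjusted p = 0.0203). Of 12 senescence and p53 targets (median 0.04) Phlda3, an inhibitor of AKT, was lower at 54.001, 35.9, 38.2, 19.1 and 34.8 CPM on ND and 23.9, 24.7, 21.8, 32.6 and 17.7 CPM on WD, a log2 fold change of -0.59 (SE 0.24, p = 0.029), with M29 inside the WD range. The other interferon-list gene that was higher was Nlrc5, the activator of class I genes, at 5.55, 9.19, 7.34, 14.5 and 13.9 CPM on ND and 23.6, 9.85, 18.1, 18.01 and 11.2 CPM on WD, a log2 fold change of 0.68 (SE 0.30, p = 0.039).

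The 75 nuclear genes of oxidative phosphorylation (median -0.08), the 11 genes of the mitochondrial genome (median -0.20) and the 19 antioxidant genes (median 0.05) had no member past that p. Of 16 basement membrane genes (median 0.05) Col15a1 was the only one. The mitochondrial genome gave 18.9% to 27.6% of the counts of a library. Markers of cells that the RV can carry besides muscle were few among the testable genes: 2 lymphocyte genes (median 0.06), 3 of nerve and Schwann cells (median -0.12), 1 adipose gene (0.24), 4 of cartilage and valve (median -0.17), with Sox9 the 1 past that p, and 4 of skeletal muscle (median -0.01), with Myl1 the 1 past it.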
